A study of Mus musculus with 4 samples.

Results

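Arginase and polyamine synthesis genes were followed across 4 sorted cell samples of the mouse small intestine. The set comprises 7 genes: Arg1, Arg2, Odc1, Amd1, Srm, Sms and Sat1. A gene was taken where the platform's symbol, or a synonym of it, was its name, and 5 of the 7 were measured, out of 16390 genes in all. A probe was selected on the highest mean spot intensity over the 4 arrays where a gene had several, and each of the 5 has 1. Amd1, which makes decarboxylated S-adenosylmethionine, and Sms, the spermine synthase, were not analysed here. The genes were chosen by name with their levels and differences on these 4 arrays known, so the values below describe them and test nothing.

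Each group is 1 array. The Dclk1+ tumor sample was pooled from intestinal tumors of 7 Dclk1CreERT2/+; ApcMin/+ mice older than 16 weeks, and the Dclk1- tumor sample came from 1 such mouse of 17 weeks. For normal small intestine, the Dclk1+ sample was pooled from 2 Dclk1CreERT2/+ mice of 26 weeks and the Dclk1- sample came from 1 such mouse of 26 weeks. All mice were male and all carried 1 Dclk1CreERT2 allele, in which the inducible Cre recombinase is placed at Dclk1. ApcMin is a truncating allele of the Wnt pathway brake Apc that starts intestinal adenomas, and Dclk1 is a marker of tuft cells, which sense lumen contents. Dclk1+ tumor cells were sorted by GFP, and no gate for the other samples is given in the sources used here. Tumor and normal samples differ in Apc genotype and in age as well as in histology, and these cannot be told apart. Within each tissue the Dclk1+ and Dclk1- samples also differ in the number of mice, 7 against 1 in tumor and 2 against 1 in normal. The sorted cell type and the animals cannot be told apart either.

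Arginase splits arginine into urea and ornithine. Arg1 is the cytosolic enzyme, known from liver and from macrophages activated by type 2 cytokines, and Arg2 is the mitochondrial one. Odc1, ornithine decarboxylase, turns ornithine into putrescine and is the regulated entry step of polyamine synthesis. Srm adds an aminopropyl group to make spermidine, and Sat1 acetylates spermidine and spermine so that they can be oxidised or exported. In the gut polyamines are known for their need in dividing epithelium, and Odc1 is a classic target of Myc.

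Levels are given as normalised intensities, the linear values in the deposited series table, in which the median of the listed probes is near 25 on each array and dim probes have an empty cell. Differences are log2 differences between 2 arrays after background correction with a fixed offset and quantile normalization, the first-named sample minus the second, and the offset shrinks the differences of dim genes. A probe was above background when its spot was over the blanks' mean on that array by more than 2 SD, and a gene was counted when it lay at least 2-fold apart (1 on the log2 scale) with a probe above background on one array of the pair or on both. With 1 array in each group there was no replicate and no test, and precision is limited by the number of arrays. The deposited columns are not level with each other: over genes above background, the median log2 ratio of deposited intensities was 0.35 for Dclk1+ tumor against Dclk1- tumor, 0.27 for Dclk1+ normal against Dclk1- normal, -0.40 for Dclk1+ tumor against Dclk1+ normal and -0.50 for Dclk1- tumor against Dclk1- normal. The log2 differences quoted below have medians between -0.03 and 0.01. Some are also given with the local background subtracted. The local background rose with the spot it surrounds: on the log scale they correlated at 0.92 (Dclk1- normal) to 0.98 (Dclk1- tumor). That step therefore takes more from brighter spots.

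Between 10914 genes (Dclk1- tumor) and 12073 genes (Dclk1+ normal) were above background. The sorted gene, Dclk1, read 61.8 in Dclk1+ and 9.49 in Dclk1- cells of tumors, and 736 in Dclk1+ and 179.8 in Dclk1- cells of normal tissue, so the Dclk1- normal sample was brighter than Dclk1+ tumor. Of 10 tuft cell markers with a probe, 7 of 9 above background were at least 2-fold higher in Dclk1+ than in Dclk1- tumor cells, and 9 of 10 in normal epithelium. Over all genes above background, 1.76% were higher by that much in the tumor pair and 5.66% in the normal pair. The 9 include Dclk1, the sorted gene itself. Among all genes counted, 45.3% were higher for Dclk1+ tumor against Dclk1- tumor, but 24.5% with median scaling and 61.9% in the deposited values. The share was 48.9% for Dclk1+ normal against Dclk1- normal, 50.4% for Dclk1+ tumor against Dclk1+ normal and 52.6% for Dclk1- tumor against Dclk1- normal, and in the deposited values 59.3%, 33.3% and 33.3%.

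The 2 arginases were bright in different samples. Arg1 stood at a normalised intensity of 619 in Dclk1+ tumor and 2714 in Dclk1- tumor. On the normal arrays it was not above background in Dclk1+ cells, where its spot lay 0.33 SD above the mean of the blanks, and stood at 13.1 in Dclk1- cells. It was thus bright on both tumor arrays, dim or undetected on both normal arrays, and brighter in the Dclk1- sample of each tissue. The Arg1 symbol is also listed as a synonym of Tinagl1, and the value rests on the current meaning of the symbol.

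Set against normal cells, Arg1 was 5.41 higher on the log2 scale in Dclk1- tumor, the 5th highest difference among 12340 genes. In deposited intensities that ratio was 207, and the log2 difference ranged from 4.88 with the local background subtracted to 8.11 with the mean of the blanks subtracted. In Dclk1+ tumor against Dclk1+ normal, Arg1 was at least 9.76-fold higher. Within tumors the Dclk1+ sample was the lower one, by a log2 difference of -2.31, which ranged from -2.54 to -2.13 over the alternative settings. In normal epithelium Dclk1- was the brighter sample, at least 1.14-fold.

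Arg2 stood at 75.6 in Dclk1+ tumor and 169 in Dclk1- tumor, and at 59.9 in Dclk1+ normal and 1019 in Dclk1- normal. Only the Dclk1- normal sample was bright, and both Dclk1+ samples were close to each other. The log2 difference for Dclk1+ against Dclk1- was -3.12 in normal epithelium and -0.84 in tumors, so the gap was larger in normal cells by 2.27, a difference of differences that could not be tested. For Dclk1- cells, tumor was below normal by a log2 difference of -2.04, whereas the Dclk1+ samples differed by 0.23. Among Dclk1- cells, Arg1 was thus the higher in tumor and Arg2 the higher in normal, each against its own level in the other tissue.

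**Figure D1:**
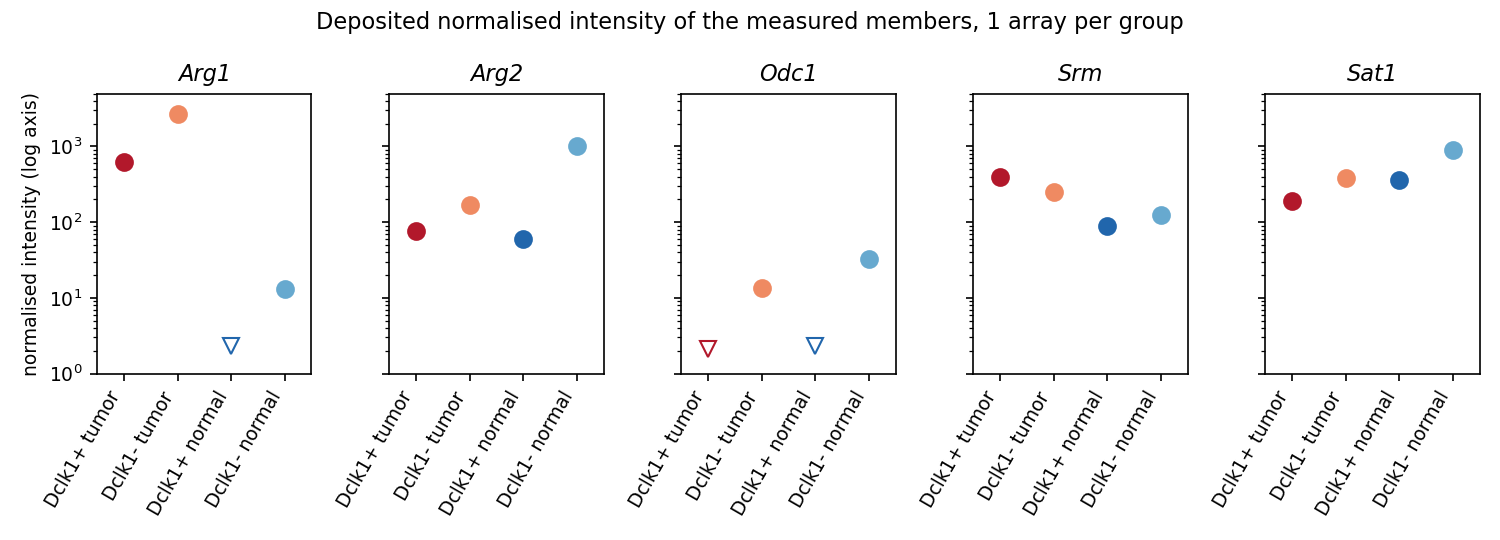
Normalised intensity (log axis) of the 5 measured genes in the 4 samples, 1 array each. Filled circles are listed values and open triangles mark probes with an empty cell, drawn at the lowest value listed on that array. Arg1 is high on both tumor arrays (619 and 2714), Arg2 in Dclk1- normal (1019), and Odc1 is listed for the Dclk1- samples only (13.4 and 32.4).

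Odc1 was at background on both Dclk1+ arrays and above it on both Dclk1- arrays. It was not above background in Dclk1+ tumor or in Dclk1+ normal, where its spot lay 0.96 SD above and 0.075 SD below the mean of the blanks (-0.075). It stood at 13.4 in Dclk1- tumor and 32.4 in Dclk1- normal, which were 10.2 and 22.9 SD above the blanks. The Dclk1- sample was thus the one with a signal in each tissue, at least 1.19-fold brighter than Dclk1+ in tumor and at least 1.41-fold in normal. These bounds come from the compressed log2 scale. Between the Dclk1- samples, tumor was below normal by a log2 difference of -0.23, or -1.27 in the deposited values. There dim signals are not compressed, and the median over all genes above background in that pair was itself -0.50. Between the Dclk1+ samples no fold can be given.

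Srm, like Arg1, was brighter on both tumor arrays. Its normalised intensity was 390.0 in Dclk1+ tumor and 252 in Dclk1- tumor, against 89.0 in Dclk1+ normal and 123.9 in Dclk1- normal. Both tumor arrays lay above both normal arrays. The log2 difference was 1.59 for Dclk1+ tumor against Dclk1+ normal, the 239th highest of 12869 genes, and 0.92 for Dclk1- tumor against Dclk1- normal. The second value missed 2-fold on the log2 scale used here and passed it with an offset of 16 (1.11), with the blanks subtracted (1.26) and in the deposited values (1.03). Within tumors, Dclk1+ cells were 0.30 higher than Dclk1- cells, and within normal epithelium they were lower by a log2 difference of -0.37. Neither reached 2-fold.

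Sat1 stood at 192 in Dclk1+ tumor and 385 in Dclk1- tumor, and at 360.4 in Dclk1+ normal and 908 in Dclk1- normal. It was above background everywhere, with the highest value in Dclk1- normal and the lowest in Dclk1+ tumor. Dclk1+ was the lower sample of both pairs, by log2 differences of -1.05 in tumor and -1.38 in normal. The value in tumor was -0.50 with the local background subtracted and then no longer reached 2-fold. Tumor was below normal by log2 differences of -0.55 in Dclk1+ and -0.89 in Dclk1- cells, both under 2-fold. With the local background subtracted the Dclk1+ value was -0.006, almost no difference. In the deposited values the Dclk1- one was -1.24, where the median over all genes above background was -0.50. The symbol Sat1 is also an old name of the sulfate transporter Slc26a1, which has a probe of its own on the array.

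Odc1 and Sat1 open the synthesis and the breakdown of polyamines, and both were brightest in Dclk1- normal cells, as was Arg2. The 250 bases before the start sites of Odc1 and Sat1 are shown, from RefSeq on GRCm38.p6, because only these 2 of the 5 matched the promoter table. The other measured members are named only. The Odc1 window is chr12:17544623-17544872 on the plus strand and the Sat1 window is chrX:155216450-155216699 on the minus strand, both written 5′ to 3′ with GC boxes in capitals.
Odc1: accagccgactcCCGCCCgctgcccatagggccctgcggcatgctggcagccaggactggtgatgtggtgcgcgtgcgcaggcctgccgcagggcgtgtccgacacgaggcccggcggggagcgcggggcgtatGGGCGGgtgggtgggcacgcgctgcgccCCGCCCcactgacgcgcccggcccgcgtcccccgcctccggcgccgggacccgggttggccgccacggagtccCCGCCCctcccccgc
Sat1: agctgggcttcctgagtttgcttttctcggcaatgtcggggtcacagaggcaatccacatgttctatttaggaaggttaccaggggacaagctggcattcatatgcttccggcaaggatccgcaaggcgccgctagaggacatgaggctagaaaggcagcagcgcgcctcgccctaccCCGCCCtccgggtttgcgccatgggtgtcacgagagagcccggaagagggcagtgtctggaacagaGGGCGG
The motifs searched, on both strands and without overlaps between them, were the GC box GGGCGG, the E-box CACGTG and the TATA box TATAAA. The Odc1 window held 4 GC boxes and the Sat1 window 2. Neither held CACGTG or TATAAA in these letters. Only these 250 bases were searched, so motifs elsewhere in or near either gene were not covered. Among 32851 windows of the same length, 32.7% held GGGCGG, 6.02% CACGTG and 12.4% TATAAA. These are letter matches only, and the arrays do not bear on binding.

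Counted together, Dclk1+ tumor cells had 2 of the 5 genes reduced at least 2-fold relative to Dclk1- tumor cells, Arg1 and Sat1, and 0 higher. Over all 12197 genes above background in that pair, 2.13% were lower and 1.76% higher by that much. At 4-fold Arg1 remained, against 0.287% of all genes lower and 0.435% higher. The median of the 5 log2 differences was -0.84, against 0.01 over all genes. The pair of normal samples likewise had 2 of 5 lower in Dclk1+ cells, Arg2 and Sat1, and 0 higher, where 5.92% of 12844 genes were lower and 5.66% higher. Arg2 was also past 4-fold, against 2.16% lower and 1.61% higher. There the median was -0.55, against 0.01. Sat1 was thus the member counted in both tissues, while Arg1 was counted in tumor and Arg2 in normal.

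Between histologies, Dclk1+ tumor cells had 2 of 4 genes at least 2-fold higher than Dclk1+ normal cells, Arg1 and Srm, and 0 lower, against 4.27% higher and 4.2% lower of 12869 genes. Arg1 was past 4-fold, against 1.17% higher and 0.42% lower. Odc1 was above background on neither array and was not counted. The median of the 4 was 0.91, against -0.03 over all genes. In Dclk1- tumor against Dclk1- normal, Arg1 was higher and Arg2 lower by at least 2-fold, which makes 1 of 5 each way, against 5.83% and 5.24% of 12340 genes, with a median of -0.23 against -0.02. Both were past 4-fold, against 1.17% higher and 1.3% lower. The 4 comparisons share arrays in pairs, so their values are not independent. The shares of all genes given for each pair also apply to the counts from gene lists below.

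**Figure D2:**
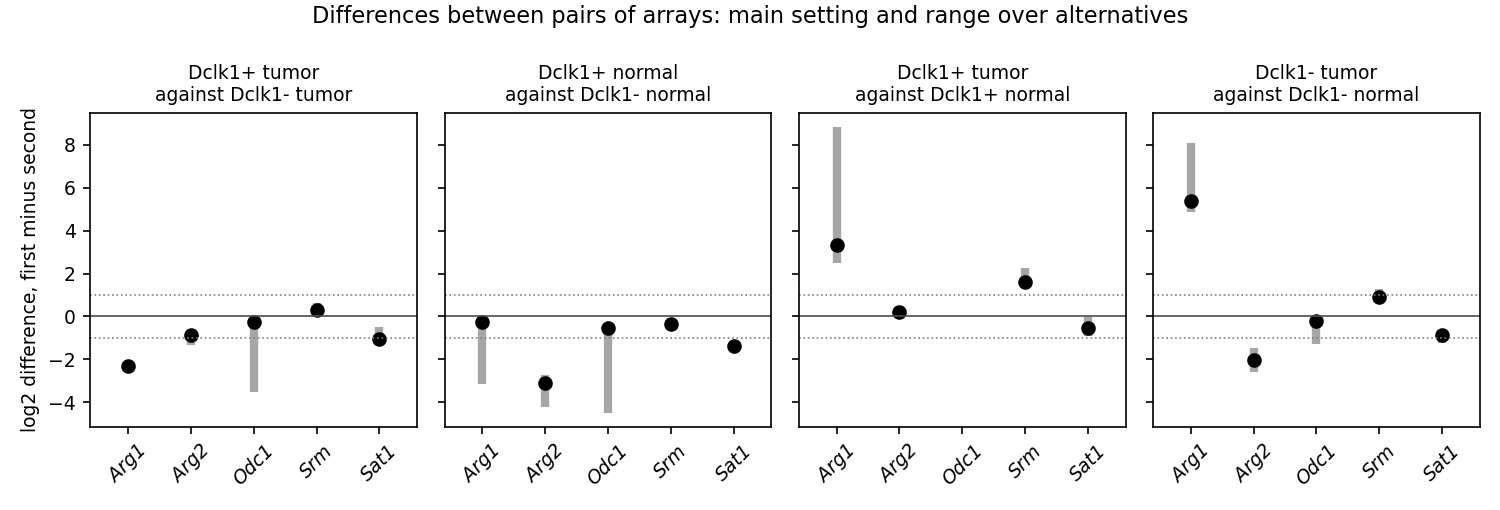
Log2 differences of the 5 genes in the 4 comparisons, first-named sample minus second. Black points are the values reported, grey bars span the 7 alternative settings run on values, and dotted lines mark 2-fold. The mean of a gene's probes, 1 of the 7, cannot alter these genes, which have 1 probe each. No bar crosses 0, though that of Sat1 for Dclk1+ tumor against Dclk1+ normal ends at -0.006. The longest bars belong to Arg1 and Odc1 (Arg1 reaches 8.82 for Dclk1+ tumor against Dclk1+ normal).

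Polyamine regulators split in normal epithelium. Of 8 genes above background from the list of polyamine regulation, oxidation and transport, 3 were at least 2-fold higher and 2 lower in Dclk1+ than in Dclk1- normal cells. Over all genes 5.66% were higher and 5.92% lower in that pair. Higher were Atp13a2, a lysosomal polyamine exporter (log2 difference 2.02, with 1058 in Dclk1+ and 148.6 in Dclk1-), and Oaz2, an antizyme that inhibits Odc1 (1.80, with 1818 and 338). Azin2, an antizyme inhibitor, was at 1.43 and at least 2.63-fold higher, with 133 in Dclk1+ cells and no listed value in Dclk1- cells. Its relative Azin1, which frees Odc1 from antizyme, was lower (-1.83, with 168 and 712). Subtraction of the local background took Azin2 to 0.51 and Oaz2 to 0.96, both under 2-fold.

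Among tumor cells the same list showed 0 of 8 genes at least 2-fold higher or lower in Dclk1+ cells. Azin2 read 61.4 for Dclk1+ and 10.6 for Dclk1- tumor cells, a log2 difference of 0.66 that passed 2-fold with an offset of 16, with the blanks subtracted and in the deposited values, where it was 2.53. Atp13a2 read 658 for Dclk1+ and 347 for Dclk1- tumor cells, and Azin1 at 102.5 and 108.0. Azin1 was low on both tumor arrays, and Dclk1- tumor was below Dclk1- normal by a log2 difference of -2.03. In that pair Atp13a2 was at 1.12. In Dclk1+ tumor against Dclk1+ normal 0 of 8 reached 2-fold in either direction. Oaz1, the main antizyme, named after its values were seen, was bright on every array, with 22299 and 11440 in the Dclk1+ and Dclk1- tumor samples and 17981 and 9826 in the Dclk1+ and Dclk1- normal samples.

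Spermidine also donates the group that turns a lysine of the translation factor eIF5A into hypusine. Of the 4 genes of that list, Eif5a itself was lower in Dclk1+ than in Dclk1- normal cells (-1.13, with 2016 and 3264) and lower in Dclk1- tumor than in Dclk1- normal cells (-1.12, with 1241 and 3264). The first difference was -0.70 in the deposited values and -0.81 with the local background subtracted. Dhps and Dohh, the enzymes of the modification, were within 2-fold in all 4 comparisons.

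In the methionine cycle, which supplies the aminopropyl donor, 1 of 13 genes was lower by 2-fold or more in Dclk1+ tumor cells against Dclk1- tumor cells and 0 were higher, against 2.13% and 1.76% of all genes. That gene was Mat2a, the S-adenosylmethionine synthetase outside liver (-1.25, with 99.5 and 281.5), and it was also higher in Dclk1- tumor than in Dclk1- normal cells (1.41, with 281.5 and 83.2). Cth, cystathionine gamma-lyase, and Ahcyl2 were the 2 of 14 genes lower in Dclk1+ normal cells, at -3.07 (38.4 against 813) and -1.35, where 5.92% of all genes were lower. Both were also lower in Dclk1- tumor than in Dclk1- normal cells (-2.11 and -1.32), so that Dclk1- normal was their bright sample, as for Arg2. With the local background subtracted, Ahcyl2 was at -0.84 and -0.91 and no longer reached 2-fold. Adi1, an enzyme that recycles the methylthio by-product of polyamine synthesis, was at 1.34 for Dclk1+ tumor against Dclk1+ normal (119 against 6.55), and at 0.94 with the local background subtracted. It was the 1 of 14 genes counted there, where 4.27% of all genes were higher.

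In the list of arginine, ornithine and nitric oxide metabolism, Pycr1, which makes proline, was the 1 of 14 counted in tumors, where 2.13% of all genes were lower, and was the lower in Dclk1+ cells (-1.56, with 74.6 and 302). It was also the highest of the list for Dclk1- tumor against Dclk1- normal (2.37, with 302 and 14.1). The 3 genes counted in normal cells were all lower in Dclk1+ cells, where 5.92% of all genes were lower. They were Oat, ornithine aminotransferase (-2.40, with 1316 and 5441), the proline oxidase Prodh (-1.87, with 19.9 and 241) and the urea cycle enzyme Otc (-1.29, with 5.78 and 111). For Dclk1- tumor against Dclk1- normal, Oat (-1.39), Nags (-1.27) and Otc (-1.05) were lower and Ddah2 (1.38) was higher. With the local background subtracted, Oat (-0.37), Nags (-0.65) and Otc (-0.82) no longer reached 2-fold there, nor did Otc between the normal samples (-0.88). Between the Dclk1+ samples, Prodh (1.83) and Ddah2 (1.01, or 0.97 with 75th percentile scaling) were higher in tumor and Nags, the synthase of the urea cycle activator N-acetylglutamate, was lower (-1.87, with 123 and 783).

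Transport of arginine across the brush border runs through Slc3a1 with Slc7a9. Slc3a1 stood at 362 in Dclk1+ tumor and 1359 in Dclk1- tumor, and at 204 in Dclk1+ normal and 7726 in Dclk1- normal. Its log2 difference for Dclk1+ against Dclk1- was -2.08 in tumor, or -0.85 with the local background subtracted, and -5.05 in normal. Slc7a9 (-2.23) and the basolateral Slc7a7 (-3.05) were also lower in Dclk1+ normal cells, which makes 3 of 7 genes of the list, against 5.92% of all genes. Dclk1- tumor was below Dclk1- normal for Slc3a1 (-2.23) and Slc7a9 (-1.89), 2 of 8 genes, and Dclk1+ tumor was above Dclk1+ normal for Slc7a7 (1.77), 1 of 5. Over all genes 5.24% were lower in the first of these pairs and 4.27% higher in the second.

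**Figure D3:**
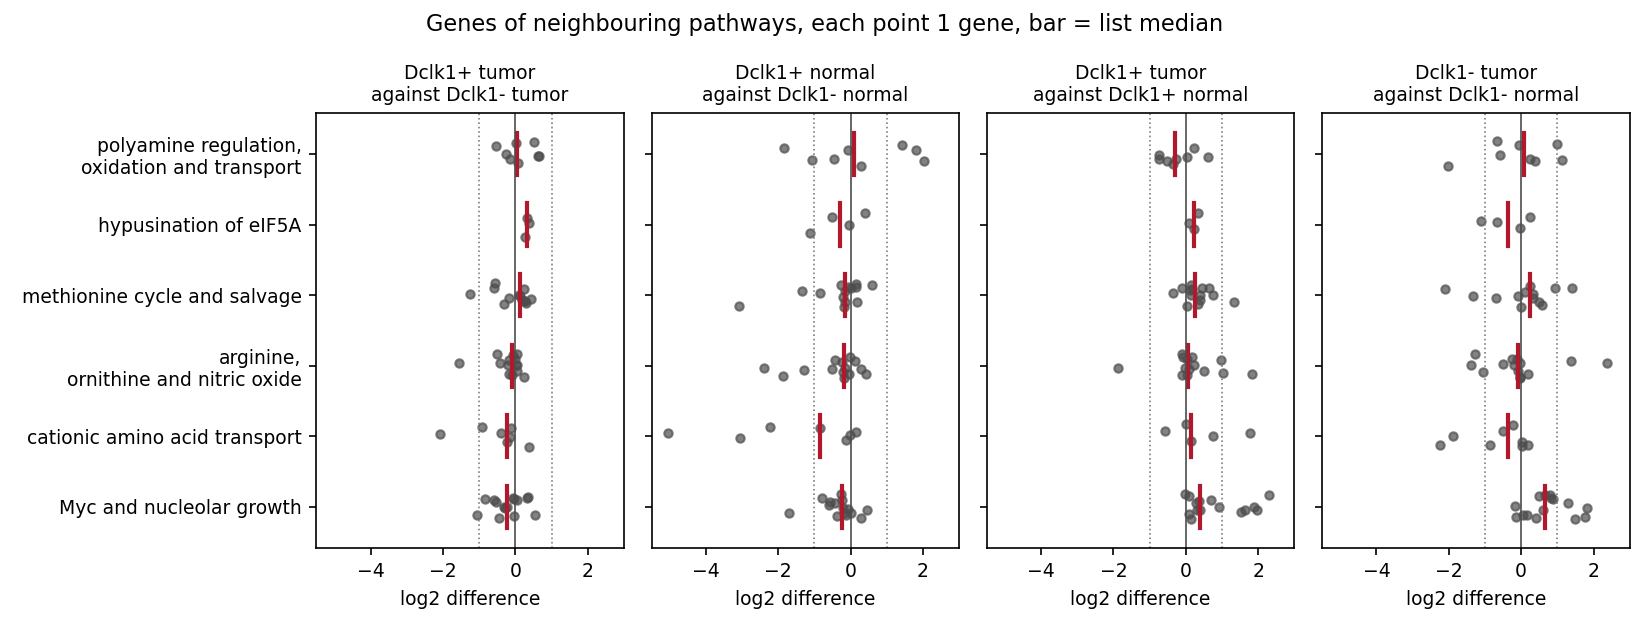
Log2 differences of single genes from 6 lists of neighbouring pathways in the 4 comparisons, first-named sample minus second. Each point is 1 gene above background in that pair, red bars are list medians and dotted lines mark 2-fold. The lowest point is Slc3a1 at -5.05 for Dclk1+ normal against Dclk1- normal, and the Myc and nucleolar list lies to the right in both tumor against normal panels (medians 0.40 and 0.66).

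Most genes of the Myc and nucleolar list stayed within 2-fold between tumor and normal. Of its 15 members, 5 lay at least 2-fold higher and 0 lower in Dclk1+ tumor than in Dclk1+ normal cells, with a median of 0.40, against 4.27% of all genes higher. Ppan (2.30), the nucleolar histone chaperone Npm1 (1.97), Rrs1 (1.88) and the ribosomal RNA methyltransferase Fbl (1.63) led them. For Dclk1- cells 4 were higher and 0 lower in tumor, namely Ncl (1.81), Ppan (1.76), Rrs1 (987 against 383) and Fbl (1.30), with a median of 0.66, against 5.83% of all genes higher. Subtraction of the local background put Rrs1 at -1.40 and -0.15 in the Dclk1+ and Dclk1- comparisons and Fbl at -4.08 in the Dclk1- one. Their direction thus depends on that step, which takes more from brighter spots, whereas Srm was then at 1.36 and 0.87. Myc, named after its values were seen, was dim, with 19.7 in Dclk1+ tumor and 31.2 in Dclk1- tumor, against 4.26 in Dclk1+ normal and 10.2 in Dclk1- normal. Between the Dclk1+ and Dclk1- samples, 1 of 15 genes was at least 2-fold lower in tumor, Nop58 (-1.07, or -0.72 with the local background subtracted), and 1 in normal, Npm1 (-1.70), and 0 were higher.

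A few genes of alternative macrophage activation differed where Arg1 did, and most of that list did not reach 2-fold. The chitinase-like Chil3 read 61.7 for Dclk1+ and 245 for Dclk1- tumor cells (log2 difference -1.44) and was not above background on the normal arrays. It was at least 4.95-fold higher in Dclk1- tumor than in Dclk1- normal. Retnla read 39.3 for Dclk1+ and 129 for Dclk1- tumor cells, and 4.91 and 8.12 for Dclk1+ and Dclk1- normal cells. Il4ra, the receptor chain for IL-4 and IL-13, was likewise reduced in Dclk1+ tumor cells (-1.15, with 109 and 277), so 2 of 11 genes were counted there and 0 were higher, with a list median of -0.08. Over all genes 2.13% were lower in that pair. Chil3 and Retnla (1.48) were the 2 of 11 counted as higher in Dclk1- tumor against Dclk1- normal, against 5.83% of all genes. In Dclk1+ tumor against Dclk1+ normal 0 of 11 reached 2-fold.

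General myeloid markers were listed on every array. Of 14 with a probe, 11 were above background in each tumor sample and 9 in each normal sample, and their summed normalised intensity was 1811 in Dclk1+ tumor and 4149 in Dclk1- tumor, and 1687 in Dclk1+ normal and 700.4 in Dclk1- normal. Adgre1 and Itgam had no listed value on any array. Fcer1g (-1.88), C1qa (-1.71) and C1qb (-1.43) were the 3 of 11 that were lower in Dclk1+ tumor cells, and 7 of 11 were higher in Dclk1- tumor against Dclk1- normal, led by C1qb (2.94). Over all genes 2.13% were lower in the first of these pairs and 5.83% higher in the second. In Dclk1+ tumor against Dclk1+ normal, where Arg1 was at least 9.76-fold higher, C1qb stood at 778 and 877, Fcer1g at 237 and 197, and Cd14 (1.30) and S100a8 (1.15) were the 2 of 11 counted as higher. Paneth cell markers also differed in these pairs. Their summed intensity was 14147 in Dclk1+ tumor and 20918 in Dclk1- tumor, and 157 and 4704 for the Dclk1+ and Dclk1- normal samples, with all 4 above background except Ang4 in Dclk1+ normal. Mmp7 (6.60), Defa5 (3.91) and Itln1 (3.63), 3 of 4, were higher in Dclk1+ tumor than in Dclk1+ normal cells, and Mmp7 (4.47) and Defa5 (2.74) in Dclk1- tumor. Within tumors Defa5 (-2.32), Itln1 (1781 and 4384) and Ang4 (-1.14) were lower in Dclk1+ cells. In the Dclk1+ pair the goblet cell markers Agr2 (6.22) and Spink4 (4.48) were higher in tumor, 2 of 6, and 8 of 10 tuft cell markers were lower, Dclk1 the most (-2.36). The part of macrophages, Paneth, goblet or tuft cells in the Arg1 signal was not tested, and in bulk samples fewer cells of a type and less RNA per cell cannot be told apart.

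**Figure D4:**
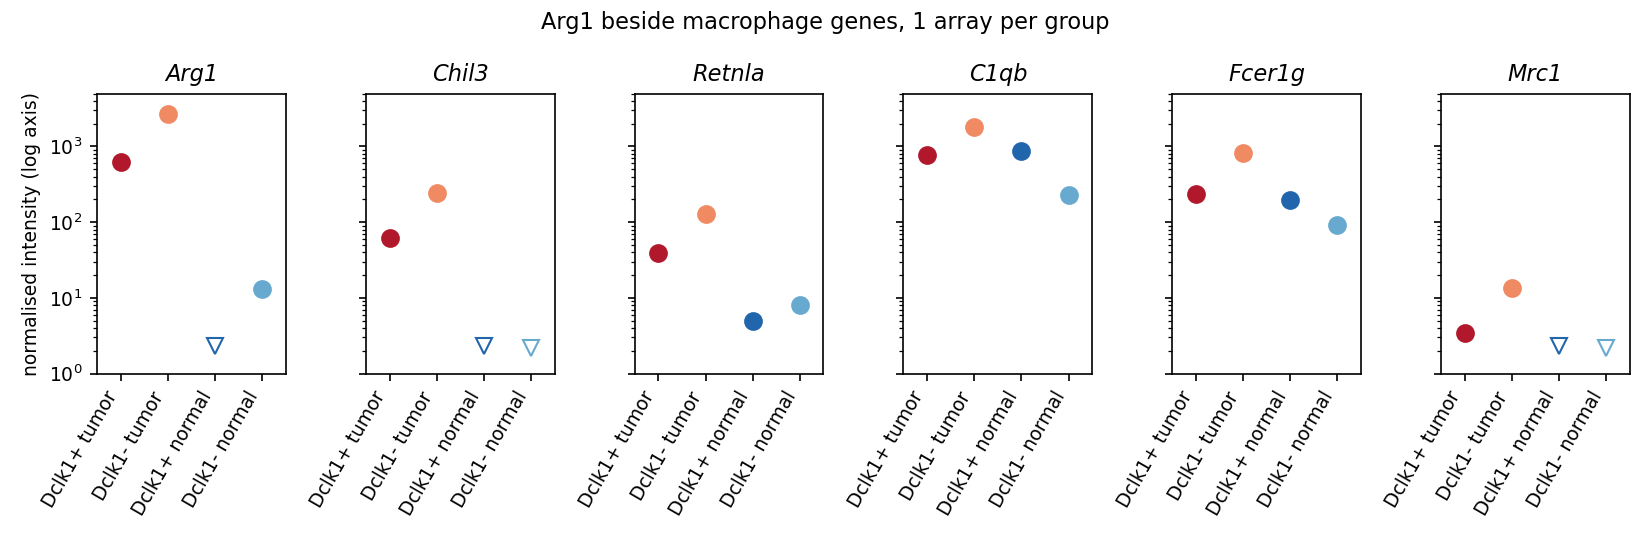
Normalised intensity (log axis) of Arg1 and 5 macrophage genes, chosen for display after their values were seen, in the 4 samples of 1 array each. Open triangles mark probes with no listed value, drawn at the lowest value listed on that array. Arg1 and Chil3 are high on the tumor arrays and dim or unlisted on the normal ones, while C1qb is listed on all 4 (778, 1813, 877 and 230.0 in the order drawn). Cd68 and Csf1r, not drawn, stayed within 2-fold in every comparison.

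Most enterocyte markers were lower in each pair in which Arg2 or Sat1 was lower by 2-fold, while cell cycle genes differed in some of those pairs only. Of 10 enterocyte markers, Dclk1+ normal cells had 7 lower and 1 higher than Dclk1- normal cells by 2-fold or more, led by Krt20 (-6.03), and 6 were lower and 0 higher in tumor. In Dclk1- tumor against Dclk1- normal 8 of 10 were lower and 0 higher. All 10 were above background on each array, and their summed normalised intensity was 22100 in Dclk1+ tumor and 23780 in Dclk1- tumor, and 86315 in Dclk1+ normal and 89853 in Dclk1- normal. Fabp1 stood at 63956 in Dclk1+ normal and 14387 in Dclk1- normal and weighs heavily in those sums. Of 10 cell cycle genes above background, 5 were lower and 0 higher in Dclk1+ than in Dclk1- normal cells, led by Birc5 (-3.63), and 1 was lower in tumor. In Dclk1- tumor against Dclk1- normal, where Arg2 was lower, 0 of 10 differed by 2-fold. Beside Srm, 3 of 10 were higher in Dclk1+ tumor than in Dclk1+ normal cells. Their summed normalised intensity was 3249 in Dclk1+ tumor and 4224 in Dclk1- tumor, and 1456 in Dclk1+ normal and 6158 in Dclk1- normal. Plk1 had no listed value on any array. Goblet cell markers were brightest in Dclk1- normal as well, with summed intensities of 20838 in Dclk1+ tumor and 42444 in Dclk1- tumor, and of 7603 and 180562 for the Dclk1+ and Dclk1- normal samples. Enteroendocrine markers had the same bright sample, with sums of 1232 in Dclk1+ tumor and 633 in Dclk1- tumor, and of 6507 and 37617 for the Dclk1+ and Dclk1- normal samples. Of 8, 6 were lower in Dclk1+ than in Dclk1- normal cells (median -3.98) and 7 were lower in Dclk1- tumor than in Dclk1- normal cells (median -3.73). The part of enterocytes, goblet, enteroendocrine or dividing cells in the arginase and polyamine values was not tested.

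For each gene whose log2 level spanned at least 2-fold over the arrays, the most similar profiles were sought among 13464 other genes as the smallest Euclidean distance between log2 levels centred on their mean over the 4 arrays. Nearest to Arg1 were the goblet cell peptide Retnlb (distance 0.63), Gpx5 (0.72) and the iron-binding defence protein Lcn2 (0.99). Lcn2 stood at 974 in Dclk1+ tumor and 1630 in Dclk1- tumor, and at 18.6 and 25.9 in Dclk1+ and Dclk1- normal. Nearest to Arg2 were the brush border protease Tmprss15, which activates trypsinogen (0.046), Cgref1 (0.16) and the aminoacylase Acy1 (0.16). Acy1 stood at 371 in Dclk1+ tumor and 663 in Dclk1- tumor, and at 352 in Dclk1+ normal and 3169 in Dclk1- normal, with the same single bright sample as Arg2. Srm was closest to Fer1l4 (0.11), Adgrl2 (0.16) and Acsm3 (0.16), and Sat1 to the tetraspanin Cd63 (0.16), Mcts1 (0.17) and S100a10 (0.19). The distances rest on 4 arrays and on the log2 scale that shrinks the differences of dim genes, and are a description. Tmprss15 read 6.61 in Dclk1+ tumor and 63.3 in Dclk1- tumor. It was unlisted in Dclk1+ normal, where Arg2 read 59.9, and read 507 in Dclk1- normal, where Arg2 read 1019. In Dclk1+ normal Fer1l4 read 6.63 and Acsm3 was unlisted, where Srm read 89.0. A small distance is thus no match of deposited levels.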

How the data were processed

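RNA of sorted cells was amplified, labelled with Cy5 and hybridised to 4 arrays, 1 per group, per the labels. Per the file headers, the deposited scanner files hold each spot's median intensity at 635 nm and that of the surrounding background, joined from 3 gains by straight-line fits, with nothing subtracted. The authors' deposited series table is a straight line of those intensities, less a constant near the mean of the blanks (20.4 to 22.9). The array's genome build is not stated in the sources used here.

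Spot intensities, without local background, were corrected with normexp (limma 3.58.1, R 4.3.3, offset 50). Control spots and 4 flagged spots on probes were dropped, and the arrays were quantile normalized on the log2 scale. The steps were tested on simulated arrays, all built from the Dclk1+ tumor array, with known folds put on spots well above the blanks. Dim genes and arrays of unlike signal were thus not covered. Symbols from the platform table (16631 probes named, 6842 unnamed) were updated through RefSeq GRCm38.p6, used for names and promoters. A gene's probe with the highest mean spot intensity was used. A gene above background on 1 array of a pair is given as a bound ("at least") from normalized values: its level against the higher of its own value on the dim array and the lowest probe above background there. No test was possible with 1 array per group.

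Named were all members, at most 4 counted genes per list and comparison, and the 3 nearest profiles. Defining cell type markers are named beside a member that differs. Some further genes are named after their values were seen, where the text says so. The members and lists were chosen with earlier results of these data known. Alternatives were another offset, subtraction of blanks or of local background, median and 75th percentile scaling, the deposited table, 3 SD or no filter, the mean of a gene's probes and a 4-fold threshold.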

Additional observations from a re-analysis of the deposited data

How the results depend on the processing

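All 19 log2 differences of the 5 genes kept their sign under the 7 alternatives run on values, and 7 of the 8 that reached 2-fold did so under each of them. The exception was Sat1 in tumors (-0.50 with the local background subtracted). The mean of a gene's probes is 1 of those 7 alternatives. It could not alter any of these differences, since each of the 5 genes has 1 probe. With that step Sat1 was at -0.006 for Dclk1+ tumor against Dclk1+ normal and Arg1 at -0.036 for Dclk1+ normal against Dclk1- normal. These are almost no difference, although the sign was kept. With the blanks subtracted, Arg1 reached 8.82 for Dclk1+ tumor against Dclk1+ normal and Odc1 -3.55 in tumor and -4.48 in normal for Dclk1+ against Dclk1-. That setting adds no offset, and a spot less than 1 SD over the mean of the blanks is set to 1 SD. Odc1 lay at 0.96 SD in Dclk1+ tumor and -0.075 SD in Dclk1+ normal, and Arg1 at 0.33 SD in Dclk1+ normal. These large values are therefore ratios to that floor. With the blanks subtracted, 4 genes were lower in Dclk1+ cells in tumor and 4 in normal, likewise 4 and 4 in the deposited values. For counts in the deposited values, an empty cell was set to the lowest value listed on that array. Odc1 in both Dclk1+ samples and Arg1 in Dclk1+ normal had empty cells, so their deposited differences are also ratios to a floor. Dclk1- tumor against Dclk1- normal had 2 higher with an offset of 16, with the blanks subtracted and in the deposited values, and 3 lower in the last. At 4-fold, 1 gene was lower in each of the Dclk1+ against Dclk1- comparisons and 1 was higher for Dclk1+ tumor against Dclk1+ normal. Counts of all genes, higher and lower, moved as follows. For Dclk1+ tumor against Dclk1- tumor (215 and 260), an offset of 16 gave 406 and 565, the blanks subtracted 1694 and 1939, median scaling 143 and 440, the deposited values 2219 and 1366, 4-fold 53 and 35, and local background subtraction 388 higher. For Dclk1+ normal against Dclk1- normal (727 and 760), the blanks subtracted gave 2568 and 2546, the deposited values 2996 and 2058 and 4-fold 207 and 277. For Dclk1+ tumor against Dclk1+ normal (549 and 540), an offset of 16 gave 952 and 886, the blanks subtracted 2334 and 2806, the deposited values 1743 and 3494 and 4-fold 150 and 54. For Dclk1- tumor against Dclk1- normal (719 and 647), an offset of 16 gave 1157 and 1008, the blanks subtracted 2493 and 2704, the deposited values 1804 and 3608 and 4-fold 144 and 161. Among list genes at least 2-fold apart, Rrs1 (-1.40 and -0.15) and Fbl (-4.08) turned sign with the local background subtracted. No paired analysis was possible because each group is 1 array. Slide and scan batches could not be fitted for the same reason.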

Other observations

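Genes of nitric oxide and creatine synthesis and some cationic carriers were dim or unlisted, and were named after their values were seen. Agmat, of the polyamine regulation list and also named after its values were seen, was above background on each array. It read 240.5 in Dclk1+ tumor and 312 in Dclk1- tumor, and 518 in Dclk1+ normal and 628 in Dclk1- normal. Of the nitric oxide synthases, Nos2, the inducible form that competes with arginase for arginine, was listed only in Dclk1- normal (3.88), and Nos1 and Nos3 stood between 2.15 and 3.77 where listed. Gatm, the entry enzyme of creatine synthesis, had no listed value on any array. Gamt, which completes creatine, stood at 10.9 in Dclk1+ tumor and 8.70 in Dclk1- tumor, and at 17.4 in Dclk1+ normal and 27.7 in Dclk1- normal. The cationic amino acid carriers Slc7a1 and Slc7a3 had no listed value on any array, and Slc7a2 was listed in Dclk1- tumor alone (5.52).

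Spermine oxidase, Smox, was the remaining regulator that reached 2-fold in normal epithelium. It stood at 262 in Dclk1+ normal and 557 in Dclk1- normal (log2 difference -1.08), or -0.53 with the local background subtracted, and at 286 in Dclk1+ tumor and 298 in Dclk1- tumor. Its bright sample was the same as for Arg2, Odc1 and Sat1.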
